A study of Drosophila melanogaster with 3 samples.

Results

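A group of 6 microRNA genes with known roles in the fat body, in insulin signalling or in lipid metabolism were followed in the small RNA of adult male Drosophila melanogaster heads. They are mir-8, mir-14, mir-278, mir-275, mir-305 and mir-33. The members were picked by name from that literature role, and all 6 were found by FlyBase gene number among the 262 microRNA genes, and the 3546 noncoding genes in all, of the authors' deposited table. The table compares heads whose neurons expressed Sxl-RAC with heads whose neurons expressed mCherry.

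In the Sxl-RAC arm, flies carrying tub-GAL80ts and nSyb-GAL4 were crossed to UAS-SxlRAC. In the control arm, the labels give nSyb-GAL4 crossed to UAS-mCherry at attP2, and the control cross is written there without tub-GAL80ts. If the labels are complete, the arms also differ in tub-GAL80ts, and its effect on the levels was not tested. nSyb-GAL4 drives expression in neurons, while the RNA came from whole heads, which also hold glia, eye, muscle and fat body. The sample records, which are of Sxl-RAC alone, give flies raised at 18 °C and kept at 29 °C for 4 days after eclosion. At 29 °C GAL80ts no longer represses GAL4. Sex-lethal, or Sxl, binds RNA and acts as the master switch of sex determination in flies, and Sxl-RAC is the labels' name for the form expressed here. The labels list 3 Sxl-RAC samples and no control sample, so the handling and batch of the control libraries could not be checked. The smallest mean counts of the table are sums of whole reads from 6 libraries, and genes with a single read place 3 of these libraries in each arm. The table holds no protein-coding gene, so neither the tissue nor the expression of Sxl could be checked against it. Whether replicate libraries came from separate groups of flies is not given in the sources used here. In whole heads, fewer cells of a type and less RNA per cell cannot be told apart.

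A microRNA is cut from the arms of a hairpin in a longer primary transcript, loaded into Argonaute and guided by its seed to matching messenger RNAs, whose output it lowers. In flies the fat body stores lipid and senses nutrients, and insulin-like peptides made by neurosecretory cells of the brain set growth and energy storage in it. mir-14 acts in these insulin-producing cells, where it targets the sugar-responsive factor sugarbabe, and mutants store excess fat. mir-8, the fly counterpart of the mir-200 family, targets u-shaped in the fat body and thereby favours insulin signalling, and it also acts at the neuromuscular junction. mir-278 targets expanded in the fat body, and flies without it respond poorly to insulin. mir-305 tunes insulin and Notch signalling in intestinal stem cells, and its cluster partner mir-275 is known from the mosquito Aedes aegypti, where it is needed for blood digestion and egg development. mir-33 lies in the gene of SREBP, the regulator of lipid synthesis, an arrangement shared with vertebrates, where mir-33 acts on cholesterol and fatty acid metabolism.

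Of the members, 4 rose in Sxl-RAC heads, by 1.23-fold to 1.37-fold, and none fell. mir-14, mir-275, mir-278 and mir-8 passed an adjusted p of 0.05 in the authors' DESeq2 Wald test (4 of the 5 members that have an adjusted p), mir-305 did not pass, and mir-33 had too few reads to receive an adjusted p. Among all 67 microRNAs with an adjusted p, 26.9% were called, and 16.4% were called higher, which is 11 genes, the 4 members included. These shares are not matched for abundance. The 5 members with an adjusted p had mean counts of 626 or more. Their standard errors of 0.07 to 0.12 were all under the median of 0.13 over the 67. A change of a given size therefore passed more easily in them than in most microRNAs. The point estimates of all 6 members lay above 0. Their median log2 fold change was 0.32, or 0.35 over the 5 with an adjusted p, against 0.08 over the 67 microRNAs and 0.02 over the 80 microRNAs with a mean normalised count of at least 10. The members had been chosen with earlier results of these data known, so these counts and medians describe them and are not an independent test.

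**Figure D1:**
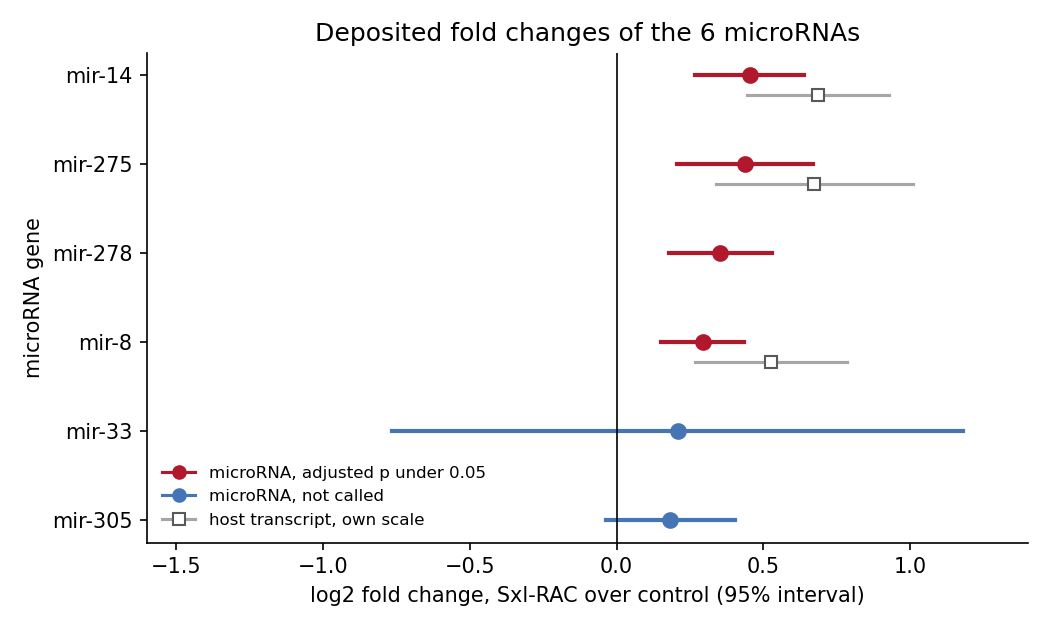
Deposited log2 fold change (Sxl-RAC over control) of each microRNA with its 95% interval, in red where the adjusted p was under 0.05 and in blue otherwise. Open squares give the noncoding transcript that appears to hold the same reads, on its own scale. The 4 red intervals lie above 0, and that of mir-33, from -0.76 to 1.18, is the widest of the 6.

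The mean normalised count is the authors' average over all libraries of reads divided by a size factor for depth. On that scale the members spanned a wide range and together made up 11.0% of all microRNA counts. mir-14 was the second most abundant microRNA of the 168 with reads, with a mean count of 32365 (7.24% of microRNA counts), and alone held 65.9% of the members' counts. mir-8 came at rank 7 with 12645, mir-278 at rank 16 with 2549, mir-305 at rank 26 with 927, mir-275 at rank 31 with 626 and mir-33 at rank 69 with 21.3. The annotated mature products are 21 to 23 bases long, and the order was the same per mature base, from 1471 for mir-14 to 0.993 for mir-33. The table adds up both arms of a hairpin, so the products of the 5p and 3p arms could not be told apart.

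**Figure D2:**
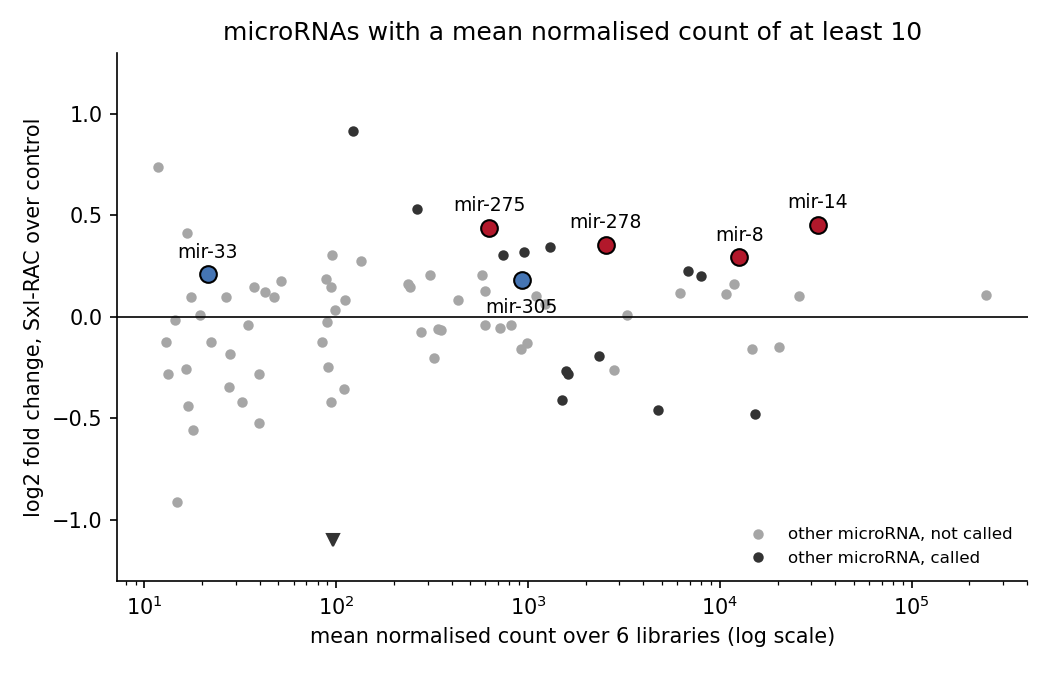
Log2 fold change against mean normalised count (log axis) for the 80 microRNAs with a mean count of at least 10. Coloured points are the 6 members, dark grey points are other called microRNAs, and the triangle at the lower edge is a microRNA beyond the axis (mir-986, at -6.20). The 4 red members lie between 0.29 and 0.45, above most microRNAs of like abundance.

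Levels in whole heads do not say in which cells a member changed. mir-14, which acts in insulin-producing cells, had the highest point estimate of the 6. The authors' deposited table puts it 0.45 ± 0.09 higher on the log2 scale (standard error, DESeq2 adjusted p 2.82e-05), a 1.37-fold increase with a 95% interval of 1.20 to 1.56. Taking arms of equal size and the deposited fold, the level was about 27321 normalised reads a library in controls and 37409 in Sxl-RAC. The 67 microRNAs with an adjusted p include 2 with a higher fold change. The gene lies on chromosome 2R at 9553762 to 9553824, plus strand, within an exon of lncRNA:CR43651. One microRNA ranked above it in abundance, mir-276a with a far higher mean count of 244708, and the next below were mir-276b with 26002 and mir-999 with 20406. These had log2 fold changes of 0.11, 0.10 and -0.15, and none of the 3 was called.

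mir-8 and mir-278 both have a known target in the fat body. Their changes were similar, which is not particular to this pair, as mir-14 and mir-275 differed by 0.02 on the log2 scale. mir-8 (chromosome 2R, 16831432 to 16831518, plus strand, within an exon of lncRNA:CR43650) was deposited at 0.29 ± 0.07 on the log2 scale (standard error), and its DESeq2 adjusted p was 0.000541. That is a 1.23-fold increase with a 95% interval of 1.11 to 1.35, from about 11365 to 13924 normalised reads per library. mir-8 is expressed in several tissues of the fly, and its head level does not say in which of them the increase arose. The 4 microRNAs ranked next to it in abundance, 2 above and 2 below, were mir-7, mir-184, mir-ban and mir-11. They lay between -0.48 and 0.16, and the 1 called among them, mir-7, was lower.

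mir-278 (chromosome 2R, 15657066 to 15657163, plus strand) was deposited at 0.35 ± 0.09 on the log2 scale (standard error), and its DESeq2 adjusted p was 0.000601. It rose 1.28-fold, with a 95% interval of 1.13 to 1.44, from about 2238 to 2860 normalised reads a library. The hairpin lies within an exon of the protein-coding gene CG42524, which the table does not list, and 154 bases from fus on the opposite strand. Its 4 neighbours in that ranking lay between -0.28 and 0.01, all under mir-278, and the 2 called among them, mir-9a and mir-bft, were lower.

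mir-275 and mir-305 form a cluster on chromosome 2L, both on the plus strand, with 79 bases between the hairpins (7425795 to 7425892 and 7425972 to 7426044). mir-275 rose 1.35-fold (95% interval 1.15 to 1.59), or by 0.44 ± 0.12 on the log2 scale (standard error, DESeq2 adjusted p 0.00144). For mir-305 the fold was 1.13 with an interval of 0.975 to 1.32, or 0.18 ± 0.11 on the log2 scale (standard error, DESeq2 adjusted p 0.266). In normalised reads per library, mir-275 corresponds to about 532 in controls and 721 in Sxl-RAC, and mir-305 to about 869 and 986. The 4 neighbours of mir-275 in abundance lay between -0.05 and 0.30, and the 1 called among them, mir-190, was higher. Those of mir-305 lay between -0.16 and 0.32, and the 1 called among them, mir-210, was higher and lay above mir-305.

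Whether the changes of the pair differed could not be decided. mir-275 exceeded mir-305 by 0.26 on the log2 scale, with a 95% interval of -0.06 to 0.57 when the errors are taken as independent. With an assumed error correlation of 0.5 the interval ran from 0.03 to 0.48, so the answer depends on a correlation that the table does not give. Over all 15 pairs of members, no interval of the difference excluded 0 under independent errors, and 2 did under the assumed correlation, both against mir-305 (the other was mir-14, 0.27 above it). The passing of the test by mir-275 and not by mir-305 is therefore not in itself a sign of a difference, and a difference is not excluded.

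**Figure D3:**
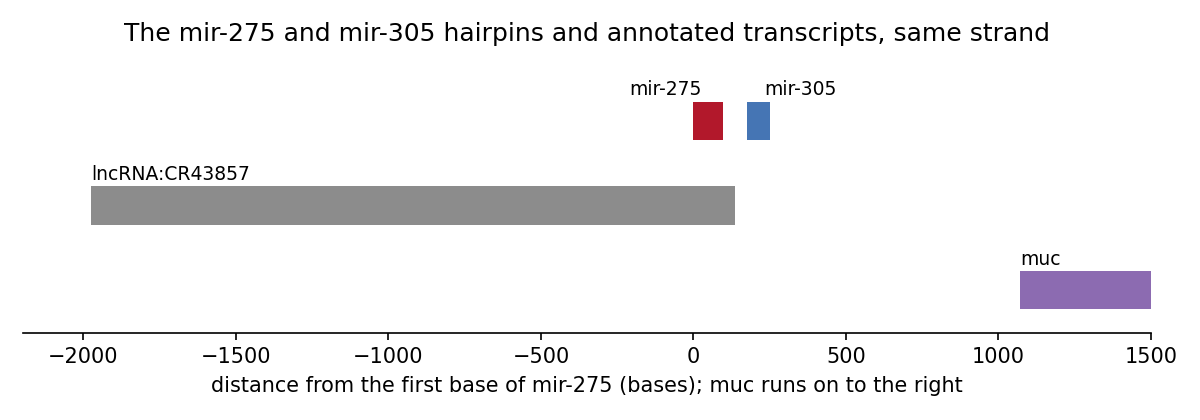
Positions of the mir-275 hairpin (red, called) and the mir-305 hairpin (blue, not called), of lncRNA:CR43857 and of the start of the gene muc, as distance in bases from the first base of mir-275, all on the same strand. The annotated lncRNA:CR43857 spans mir-275 and ends 39 bases before mir-305.

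mir-33, the microRNA of the SREBP gene (chromosome 3L, 19797961 to 19798059, plus strand, in an intron of SREBP on the same strand), had the lowest level of the 6. Its mean count of 21.3 lay under the filter of the authors' test, which left microRNAs up to a mean count of 22.3 without an adjusted p and gave one from 26.7 on. On the log2 scale the deposited change was 0.21 ± 0.50 (standard error), and the unadjusted DESeq2 p was 0.674. The 95% interval, from 0.589-fold to 2.27-fold, covers both a loss and a gain larger than any called change of the other members. Its 4 neighbours in abundance lay between -0.56 and 0.10, and none was called, of which 1 had an adjusted p.

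For mir-33 alone the reads were few enough to be recovered library by library. The recovery assumes that the authors' fit was a plain negative binomial maximum likelihood fit, with its dispersion set by the deposited standard error, and the values per library depend on that. Of 385 sets of whole reads over the 6 libraries that give the deposited mean count, 1 returned the deposited log2 fold change to within 6.61e-07, and the next closest missed it by 0.00525. In that set the control libraries, from the deepest to the shallowest, held 23, 23 and 18 reads of mir-33, and the Sxl-RAC libraries held 27, 27 and 10. Divided by the size factors these are 12.6, 24.6 and 23.3 normalised counts in controls and 27.1, 27.7 and 12.9 in Sxl-RAC.

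One library of each arm was low, the deepest control and the shallowest Sxl-RAC library, and the arms overlapped. The means were 20.2 ± 6.59 (SD, n = 3) in controls and 22.5 ± 8.37 (SD, n = 3) in Sxl-RAC (exact two-sided permutation test, p = 0.5, where 3 against 3 libraries cannot go below 0.1). Each arm held 64 reads of mir-33 in all. Without the deepest control library the log2 fold change turned to -0.075, and without each other library in turn it ran from 0.04 to 0.48. Every one of these 95% intervals included 0.

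**Figure D4:**
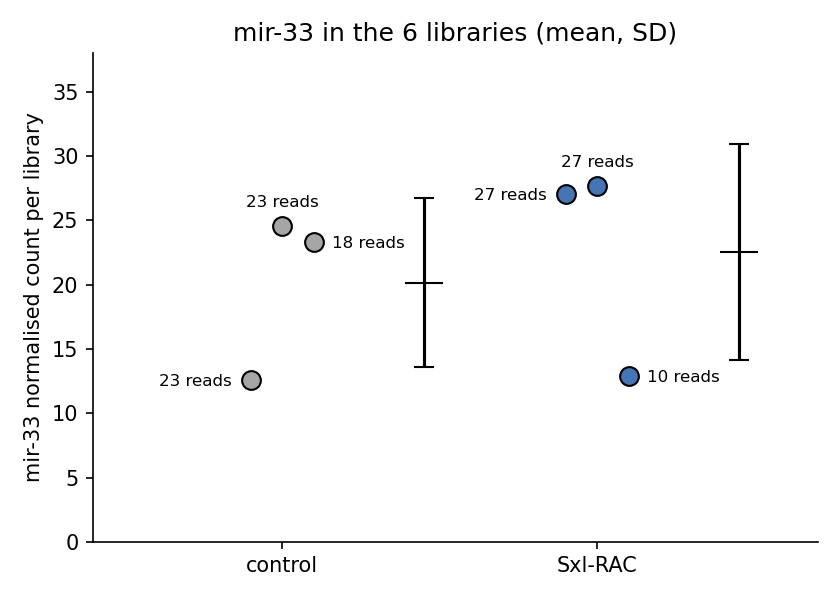
Normalised counts of mir-33 in each of the 3 control and 3 Sxl-RAC libraries, recovered from the deposited mean count, with the whole reads beside each point and the mean and SD of each arm to its right. Values run from 12.6 to 24.6 in controls and from 12.9 to 27.7 in Sxl-RAC, and the arms overlap.

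The precision of the members was set more by the spread between libraries than by depth. If reads were the only source of error, the standard error of the log2 fold change would be 0.006 for mir-14, 0.010 for mir-8, 0.02 for mir-278, 0.04 for mir-305, 0.05 for mir-275 and 0.25 for mir-33. Counting thus makes up 0.469% of the squared standard error of mir-14, 15.4% of that of mir-275 and 25.5% of that of mir-33. The remainder corresponds to a coefficient of variation between libraries of one arm of 6.08% for mir-8, 7.29% for mir-278, 7.99% for mir-14, 8.91% for mir-305, 9.18% for mir-275 and 36.0% for mir-33. DESeq2 draws such spreads toward the trend over genes, so these are the model's values and not the raw spread of each microRNA. The library size factors of the microRNA rows ranged from 0.772 to 1.83 in controls and from 0.776 to 0.998 in Sxl-RAC, a span of 2.37 times.

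Of the members, 3 could be read a second time in the same table. The noncoding transcripts that span mir-14, mir-8 and mir-275 are lncRNA:CR43651, lncRNA:CR43650 and lncRNA:CR43857. Their mean counts were 32094, 12541 and 625, within 1% of the microRNAs. In the authors' deposited table these hosts had log2 fold changes of 0.68 (standard error 0.12, DESeq2 adjusted p 1.63e-05), 0.53 (0.13, 0.0111) and 0.67 (0.17, 0.0112). Of 531 other noncoding genes with an adjusted p, 0.565% were called higher, and these 3 hosts were all of them. No other microRNA called higher had a spanning noncoding transcript on its strand with a mean count within 10% of its own. The 3 host calls thus show which called microRNAs have such a transcript, and are no further trait of the members. By position and mean count these hosts appear to hold the microRNAs' reads, and they are not taken as separate observations. Counts per library, which could have checked this, were not available.

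**Figure D5:**
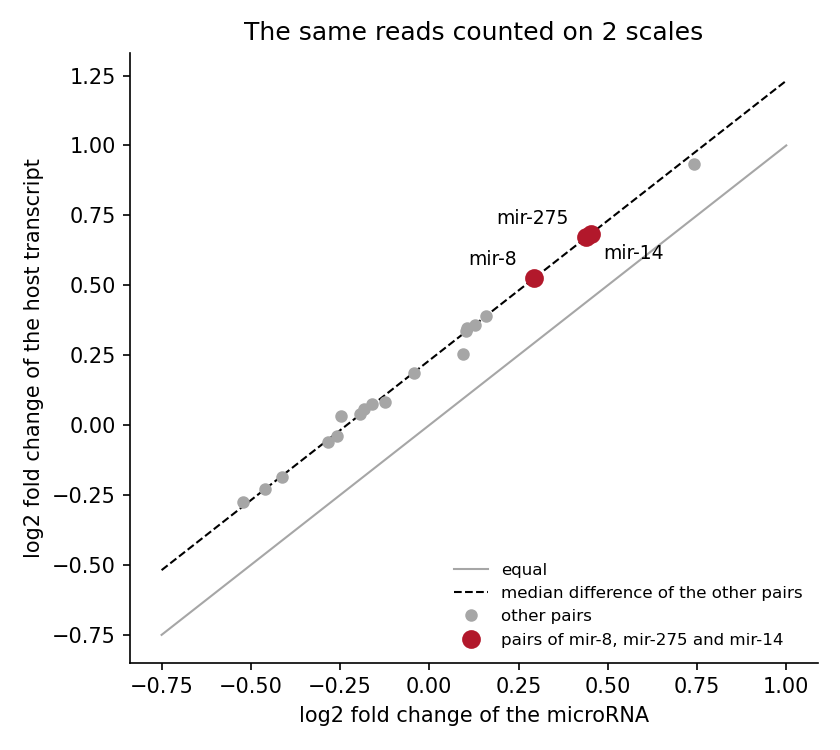
Log2 fold change of the host transcript against that of the microRNA inside it for 20 pairs on the same strand whose mean counts agree within 10%. Red points are mir-8, mir-275 and mir-14, the solid line marks equal values, and the dashed line lies 0.23 above it, the median difference of the 17 other pairs. The red points lie on the dashed line.

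The hosts exceeded their microRNAs by 0.23 (mir-14), 0.23 (mir-8) and 0.24 (mir-275) on the log2 scale. In the 17 other pairs of this kind the difference had a median of 0.23, from 0.16 to 0.28, so the members did not stand out. From this steady difference the 2 kinds of gene appear to have been scaled separately, which the processing notes do not state. The size of a member's change depends on that scale. Relative to the longer noncoding genes every microRNA moved up by 0.23. With the microRNAs' own standard errors kept, mir-305 passed as well (log2 fold change 0.41, Wald adjusted p 0.000776). Then 30 microRNAs were called, 27 higher and 3 lower, in place of 18, 11 higher and 7 lower. The hosts' deposited standard errors were larger, by a median of 1.25 times in the 17 other pairs. None of those 17 hosts was called higher in the deposited table, whose adjustment there covers other genes. The host of mir-276a, for example, was at 0.35 (DESeq2 adjusted p 0.587). The 30 calls are therefore not the deposited table's own.

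Scaling to the summed microRNA counts of each arm lowered every microRNA by 0.09 on the log2 scale. mir-276a, which holds 54.7% of microRNA counts, was itself at 0.11. There 17 microRNAs passed, 7 higher and 10 lower. The 4 called members stayed called on each of the scales tried, at 0.21 for mir-8, 0.27 for mir-278, 0.35 for mir-275 and 0.37 for mir-14 at the lowest. The call rests on DESeq2's normal reference for the Wald statistic. The deposited statistics were also set against a t distribution with 4 degrees of freedom, those of 6 libraries in 2 arms. There no member passed (adjusted p 0.137 to 0.140), while the same 4 kept an unadjusted p under 0.05, from 0.00863 to 0.0208. The deposited standard errors also draw on the trend over genes, which these 4 degrees of freedom leave out, so the setting is a strict one.

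Other microRNAs with a reported role in fly metabolism, feeding, growth hormones or lifespan did not share one direction on the deposited scale. Of 11 listed, 10 had reads and 7 an adjusted p, and 1 of these was called higher and 1 lower (16.4% and 10.4% of all tested microRNAs), with a median log2 fold change of -0.07. mir-210, known for its effect on photoreceptors and their lipids, rose by 0.32 (standard error 0.11, DESeq2 adjusted p 0.0173). mir-9a, which acts on the short neuropeptide F receptor sNPFR1 in insulin-producing cells, fell by 0.20 on the log2 scale (standard error 0.08, DESeq2 adjusted p 0.0490). For mir-9a, whose direction is the opposite of that of mir-14, the sign depended on the scale. Its host lncRNA:CR45916, which appears to hold the same reads, was at 0.04 on the scale of the longer noncoding genes. The same holds for every negative value among the 7. The lowest was -0.20, and that scale moves each microRNA up by 0.23, so all 7 lie above 0 there. The mixed direction thus depends on the scale.

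Among the uncalled ones, the growth regulator bantam (mir-ban) was at 0.16 (adjusted p 0.0975). mir-184 and let-7 (mir-let7), which alter metabolism and lifespan in adult flies, were at -0.16 and -0.07. mir-277, a regulator of branched-chain amino acid breakdown, was at 0.12, and mir-927, which acts on growth through juvenile hormone signalling, was at -0.16. The mir-310 cluster, which answers to diet in the ovary, was at the limit of detection in heads. mir-310 had 1 read in a Sxl-RAC library, mir-313 had 1 and mir-312 had 2 reads in control libraries, and mir-311 was listed at 0.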

How the data were processed

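The submitters' processing notes name Trim Galore 0.6.7, Bowtie2 2.5.3, featureCounts 2.0.8 and DESeq2 2.11.40.8 without their settings. Build, annotation and strand are not given in the sources used here. Per the file headers, the deposited table gives a base mean, a signal made of counts over size factors averaged over libraries. It also gives the authors' log2 fold change with its standard error, a Wald score, a p-value and an adjusted p-value. The direction, Sxl-RAC over control, is that of the file's name.

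Members were matched by gene number to Ensembl release 115 (BDGP6.54), which gave all coordinates and matched 3545 of 3546 rows. Benjamini-Hochberg adjustment over the 67 microRNAs with an adjusted p returned the deposited values to within 0.236%, so the microRNAs form a test of their own. A gene is called where the deposited adjusted p is under 0.05. All named microRNAs are the members, the fixed list of 11, overlapping genes and neighbours in abundance; mir-986 and the most abundant microRNA were named after their values were seen. The members and lists were chosen with earlier results of these data known.

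Libraries were recovered from the 35 distinct microRNA mean counts under 0.95, which are all sums of whole reads of 6 libraries (21 of 35 with 5). Arm means assume arms of equal size. The recovery, the adjustment and the error split were tested on simulated data. The simulated fits were plain negative binomial fits with a dispersion fixed in advance. They could not test whether the authors' fit was of that kind. Python 3.11.15, SciPy 1.17.1 and pandas 2.3.3 were used. Intervals are 95% normal intervals from the authors' standard errors. Alternatives changed the adjustment, the reference distribution and the scale. Recovered libraries carry no replicate number. P-values measure the spread between these libraries, which may be technical.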

Additional observations from a re-analysis of the deposited data

How the results depend on the processing

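The count of called members (4, all higher) was the same with a threshold of 0.1, with adjustment over all microRNAs, over all genes or over genes whose mean count reached 10, after re-centring on the microRNA median, and on both scales of summed microRNA counts. On the scale of the longer noncoding genes, with the microRNAs' standard errors kept, 5 members were called, mir-305 being added at 0.41. With the t distribution 0 members were called, at unchanged log2 fold changes of 0.29 for mir-8, 0.45 for mir-14, 0.35 for mir-278 and 0.44 for mir-275 (adjusted p 0.137 to 0.140). That setting is strict, as it keeps the deposited standard errors, which draw on the trend over genes, and changes the reference distribution alone. The 18 called microRNAs became 11 with adjustment over all genes, which adds many genes of low counts, 30 on the scale of the longer noncoding genes, and 1 with the t distribution. The difference of 0.26 between mir-275 and mir-305 excluded 0 with an assumed error correlation of 0.5. No member changed sign under these alternatives. For mir-33, leaving out each recovered library in turn, chosen after seeing the data, gave -0.075 to 0.48, with the sign turned by the deepest control library alone. Re-centring and the scale without mir-276a moved every microRNA by -0.02 and -0.06. For mir-33 the adjusted p was 0.885 to 0.983 wherever one could be computed. No paired analysis was possible because the table has no column per library and the recovered libraries carry no replicate numbers. For the other members no library could be left out, since their values per library were not recovered. Counting error makes up 25.5% of the squared standard error of mir-33, and less for the other members.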
